A study of Drosophila melanogaster with 18 samples.

Results

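The genes described here lie on chromosome 4 of Drosophila melanogaster, the small dot-like chromosome (dm6 build). A gene was taken when the annotation placed it on that chromosome and its deposited value reached 10 in at least 3 libraries of the male table, which 84 of the 97 chromosome 4 genes listed there did, of 8921 genes passing among 10884 in all. Of these 84 genes, 77 are protein-coding and 7 are not, and each was also found in the mutant table, which lists 10480 genes. They were chosen by their level across the male libraries, whatever its change with age. The filter was crossed narrowly by asRNA:CR44030, with a mean of 9.47 normalized counts and 10 or more in 6 libraries, and narrowly missed by lncRNA:CR44440, with a mean of 6.19 and 10 or more in 2 libraries.

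Chromosome 4 is unusual in that it is packed with repeats and heterochromatin marks along its whole gene-bearing arm, yet its genes are transcribed. The protein Pof binds nascent RNA of its active genes and raises their output, while heterochromatin protein HP1a and the methyltransferase encoded by eggless (egg) coat the same arm. The genes themselves have no common function. They include parts of the synaptic release machinery, Pax-family and other transcription factors, axon guidance receptors, ligands of the TGF-beta family, an ATP synthase subunit and the precursor of the main lipid carrier of the blood.

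RNA came from whole heads of flies kept at 25 °C, and polyadenylated RNA was sequenced in 18 libraries, 3 in each of 6 groups. The 4 male groups were of the control line w1118 (stock 5905), collected at day 3, day 15, day 30 and day 45. The female groups, both collected at day 3, were w1118 and flies homozygous for c431, an allele of foxo, the transcription factor that acts downstream of insulin signalling. All 4 male ages share the wild-type genotype, so age and mutation were compared in different sexes and in separate tables. The sources used here do not give the lesion in c431. In the authors' deposited table foxo mRNA was higher in the flies labelled c431 (log2 change 0.33, SE 0.091, adjusted p = 0.00465), and without the lesion its level does not check the label. A head holds brain, eyes, fat body and muscle together, so fewer cells of a type and less RNA per cell cannot be told apart in any result. Whether the 3 libraries of a group came from separate collections is not in the labels, so the tests reflect variation between these libraries, which may be technical.

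The male libraries held 2999956 to 4102364 reads on genes. In the male heads the summed level of 4 neuronal markers (elav, nSyb, brp, Syt1) was 12711 to 15587 normalized counts at day 3 and 8660 to 8755 at day 45, with 3 of the 4 genes lower by limma. Muscle markers summed to 9699 to 14892 at day 3 and 5110 to 5282 at day 45, and 6 of the 6 tested were lower at day 15, day 30 and day 45. Photoreceptor markers summed to 104288 to 121135 at day 3, 138355 to 147786 at day 15, 118589 to 145374 at day 30 and 64701 to 113696 at day 45. Most of that sum was ninaE, with a mean of 96256, which was not called at day 45 (log2 change -0.38, limma adjusted p = 0.138). The other 3 of the 4, trp, norpA and ninaC, were lower at day 45. Among 4 glial markers, repo (log2 change 0.42) and moody (0.24) were higher at day 45 and Eaat1 (-0.57) and alrm (-0.27) lower. Of 3 hemocyte markers, 2 were higher at day 15, day 30 and day 45, Hml by a log2 change of 0.49 and NimC1 by 0.70 at day 45. In the mutant, 2 of the 3 were higher as well by the authors' deposited table, eater (0.45) and NimC1 (0.37). The part of these cell types in the changes of chromosome 4 genes was not tested. Testis and accessory gland markers summed to 58.3 normalized counts at most.

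Nearly every protein-coding gene of chromosome 4 was detected in the heads. Of 80 annotated, 77 passed the filter, or 96.2%, against 57.9% on arm 2L to 64.3% on the X. JYalpha was the 1 coding gene in the male table that did not pass, at a mean of 1.31 normalized counts. The passing coding genes had a median of 527 normalized counts, against 115 to 131 on the other arms. Their annotated exons were also longer, with a median of 4376 bases against 2114 to 2521. Per kilobase of exon the median level was 127 normalized counts, against 48.7 to 52.6 elsewhere. These levels follow in part from the filter and are given as a description.

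On that scale, RpS3A, a protein of the small ribosomal subunit, was highest at 2612 normalized counts per kilobase. It was followed by ATPsynbeta, the catalytic beta subunit of mitochondrial ATP synthase, at 2031 per kilobase and by apolpp, the apolipophorin precursor made by fat body, at 1707. CaMKI, a calcium- and calmodulin-dependent kinase, and ND-49, a subunit of respiratory complex I, had 664 and 587 normalized counts per kilobase.

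Reads on chromosome 4 genes made up 2.60% ± 0.0618 (SD, n = 3) of all gene reads at day 3, 2.40% ± 0.0657 at day 15, 2.49% ± 0.0546 at day 30 and 2.47% ± 0.0939 at day 45. The gene apolpp alone carried 19.9% of those reads at day 3 and 25.7% at day 45. Without it the share was 2.08% ± 0.0855 at day 3, 1.85% ± 0.0765 at day 15, 1.83% ± 0.0411 at day 30 and 1.84% ± 0.0922 at day 45. The lower share was thus already present at day 15, and the 3 later ages lay within each other's spread.

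Most chromosome 4 genes that changed with age were lower in older heads, some of them already at day 15. At day 45, 42 of the 84 genes were lower than at day 3 and 3 were higher (limma, adjusted p under 0.05). Of all 8921 genes 35.7% were called, 18.3% lower and 17.4% higher. At day 30, 41 were lower and 5 higher, against 16.5% and 15% of all genes. At day 15, 21 were lower and 0 higher, against 7.42% and 5.95%. Of the 84, 5 genes were higher at a later age.

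The median log2 change of the 84 genes was -0.14 at day 15, -0.23 at day 30 and -0.26 at day 45, while the median over all genes was 0.00, 0.02 and 0.00. At day 45, 67 of the 84 lay below 0, or 79.8%, against 49.4% of all genes. Chromosome 4 stood apart from each of the larger arms in this count: 50% of its genes were lower at day 45, against 19.8% on the X, 17.7% on 2L, 16.4% on 2R, 18.6% on 3L and 17.6% on 3R. That difference between chromosomes is a description, since genes are not replicates and the chromosome was chosen with earlier results of these data known. In 49 of the 84 genes each day 45 library lay below each day 3 library, against 22.9% of all genes, and in 5 each lay above, against 22.4%. Already at day 15, 38 of the 84 had each library below each day 3 library, against 17% of all genes.

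**Figure D1:**
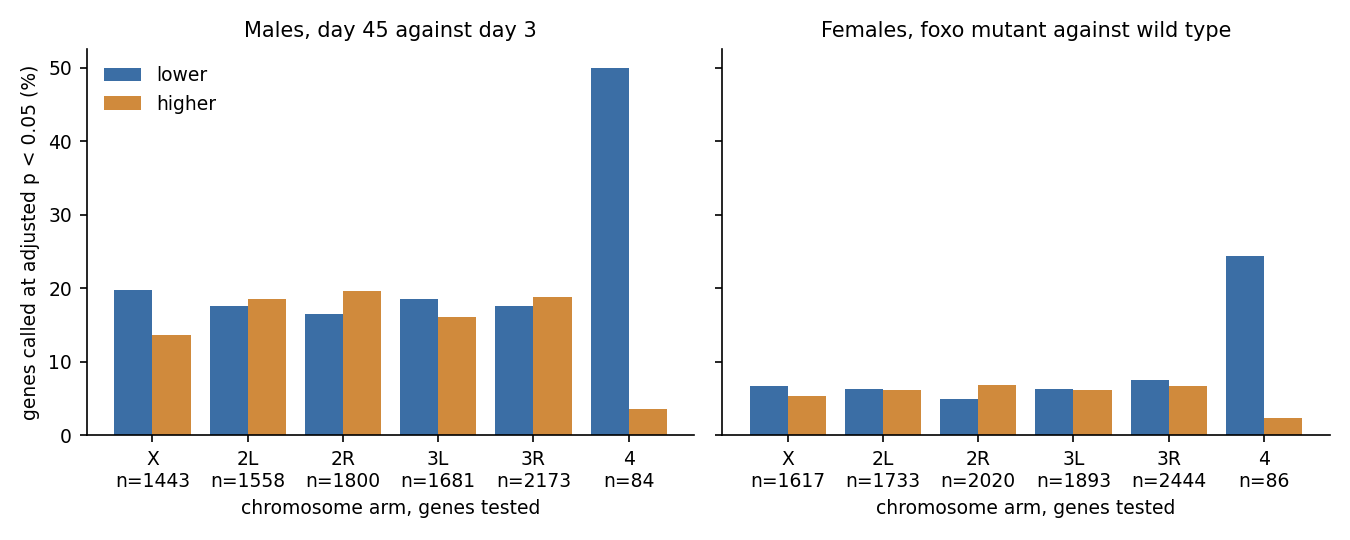
Share of genes on each chromosome arm that were called lower or higher (percent, adjusted p under 0.05), at day 45 against day 3 in male heads by limma and in foxo c431 against w1118 female heads in the authors' deposited table. Chromosome 4 has the tallest bar for lower genes in both panels (50% and 24.4%), with no such excess among higher genes.

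The 42 genes lower at day 45 fell by 0.20 to 1.26 on the log2 scale, with a median change of -0.44. The changes were mostly modest: 11 of the 42 were at least 1.5-fold lower and 3 at least 2-fold lower. The comparisons of day 15, day 30 and day 45 share the same 3 day 3 libraries, so their calls are not independent of one another. Between neighbouring later ages no chromosome 4 gene passed the limma test. From day 15 to day 30, 0 of the 84 were called, against 1.92% of all genes, 0.919% higher and 0.998% lower. From day 30 to day 45, 0 of the 84 were called, against 0.415% of all genes, 0.28% higher and 0.135% lower. At an unadjusted limma p under 0.05, 12 and 5 of the 84 passed in these steps, with no share over all genes counted. Tests on recovered reads with edgeR and DESeq2 also called 0 in both steps.

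The day 3 libraries were not alike in this respect. Day 3 replicate 1 was the highest of its group in 48 of the 84 genes and in 33 of the 42, with no share over all genes counted. Without it 34 of the 84 were lower at day 45, against 42 with it. Of all 8921 genes 1280 were lower without it, against 1629 with it. Over all single libraries left out, the chromosome 4 count ranged from 34 to 45.

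The largest falls belonged to a pair of genes with no given name and to a transporter. CG1674 (chr4:230730-245903, plus strand) had 548, 395 and 378 normalized counts at day 3, 222, 242 and 251 at day 15, 251, 229.6 and 253 at day 30, and 196, 187 and 163 at day 45. All later libraries lay below the lowest day 3 library, and day 45 lay below day 15 and day 30. It was 2.39-fold lower at day 45 (log2 change -1.26, SE 0.12, limma adjusted p = 6.41e-07). The further difference between day 30 and day 45 (-0.43) did not pass, at a limma adjusted p of 0.177.

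CG33521 (chr4:1185768-1192985, plus strand) had 373, 299 and 268 normalized counts at day 3, 154, 162 and 167 at day 15, 158, 149 and 170.0 at day 30, and 153, 144 and 132 at day 45. All later libraries lay well below day 3, and day 30 overlapped with day 15 and with day 45, while day 45 lay just below day 15. It was 2.16-fold lower at day 45 (log2 change -1.11, SE 0.11, limma adjusted p = 1.05e-06). CG33521 overlaps PIP4K, a phosphatidylinositol phosphate kinase gene on the opposite strand, which was also lower (-0.53, SE 0.07). The overlap runs only from 1192419 to 1192985, and reads within it cannot be told apart where counting by strand is not stated.

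Gat (chr4:629691-635350, plus strand) encodes the GABA transporter, which in the fly is carried by astrocyte-like glia and clears GABA from synapses. It had 1507, 1093 and 1099.5 normalized counts at day 3, 677, 742 and 808 at day 15, 597, 645 and 619 at day 30, and 630.2, 625 and 538 at day 45. No later library reached the lowest day 3 library, and day 30 and day 45 overlapped. The difference at day 45 was 2.04-fold (log2 change -1.03, SE 0.11, limma adjusted p = 1.99e-06). It moved with the glial genes Eaat1 and alrm and against repo and moody, and the part of glial RNA content in it was not tested.

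Genes of neuronal signalling and the synapse, Gat included, were the group with the most lower members. The groups below overlap, so that CaMKII, dpr7, Asator and some others count in more than 1 of them. Of the 12 neuronal genes tested, 10 were lower at day 45, 10 at day 30 and 6 at day 15, with a median log2 change of -0.47 at day 45. Over all 84 genes the shares lower were 50%, 48.8% and 25%, and over all 8921 genes 18.3%, 16.5% and 7.42%. Counts in the groups below can be read beside these shares. CaMKI, the 1 member higher at day 30 (0.23), did not pass at day 45 (0.11), and its day 30 call was lost without day 30 replicate 3 (limma adjusted p = 0.0776). The neuronal markers named above fell over the same ages, and their part in these changes was not tested.

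Cadps (chr4:1230837-1271759, plus strand), whose product primes dense-core vesicles for release, had 2519.6, 2037 and 2355 normalized counts at day 3, 1651, 1829.5 and 1638 at day 15, 1629, 1592 and 1504 at day 30, and 1455, 1473 and 1467 at day 45. The ages did not overlap between day 3 and any later age, and day 45 lay below each other age. Cadps was 1.57-fold lower at day 45 (log2 change -0.65, SE 0.08, limma adjusted p = 8.98e-06).

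CaMKII (chr4:1035288-1053703, minus strand), the calcium- and calmodulin-dependent kinase of synaptic plasticity, had 3467, 2884 and 3055 normalized counts at day 3, 2039, 2383 and 2371 at day 15, 2259, 2232 and 2133 at day 30, and 2063, 2031 and 1972 at day 45. Its later libraries all lay below the day 3 libraries. The fall at day 45 was 1.55-fold (log2 change -0.63, SE 0.08, limma adjusted p = 1.42e-05).

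The calcium sensor Syt7 had 871 ± 4.09 normalized counts at day 3 (SD, n = 3) and 602 ± 5.9 at day 45, a log2 change of -0.53. The glutamate receptor gene CG11155 went from 1760.4 ± 90.3 to 1214 ± 74.7 (-0.54), and mGluR, the metabotropic glutamate receptor, from 487 ± 27.4 to 353 ± 61.4 (-0.48). PMCA, the calcium pump of the plasma membrane, went from 1981 ± 208 to 1474 ± 33.7 (-0.42). The list also holds Cals (-0.23), which encodes calsyntenin. All 5 passed the limma test at day 45, although the spread of mGluR at day 45 was much wider than that of Syt7.

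The calls at the ends of this group were less firm. The vesicle-priming gene unc-13 was lower at day 45 (4829 ± 558 to 4009 ± 210.3, log2 change -0.26, limma adjusted p = 0.0267), but its groups overlapped, which none of the other 41 lower genes did. It shares its locus with asRNA:CR44029 on the opposite strand, which was lower too (-0.47). Its adjusted p was 0.117 without day 3 replicate 1, 0.0852 without day 3 replicate 3, 0.0785 and 0.0699 without day 45 replicate 2 and replicate 3, and 0.0774 in a fit of day 3 and day 45 alone. Ekar, a kainate-type glutamate receptor known from photoreceptors, had 159, 204 and 299 normalized counts at day 45 and 275, 290.1 and 282 at day 3, and did not pass (log2 change -0.40, limma adjusted p = 0.0516).

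**Figure D2:**
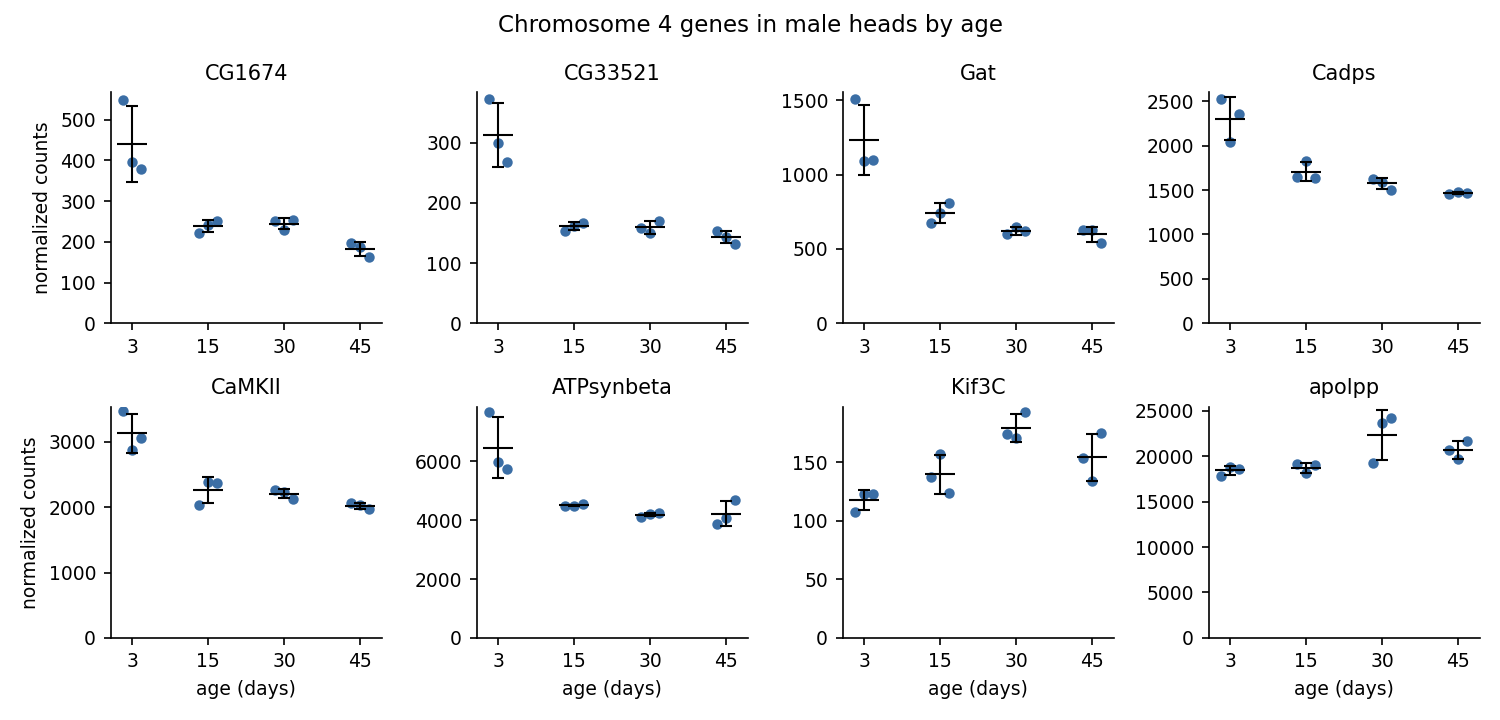
Normalized counts per library for 8 chromosome 4 genes in male heads at day 3, day 15, day 30 and day 45, each point a library and each line the group mean, on linear axes that differ between panels. In CG1674, CG33521, Gat, Cadps, CaMKII and ATPsynbeta all later libraries lie below the day 3 libraries, Kif3C is highest at day 30, and apolpp at day 30 holds 2 libraries above the rest.

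Both mitochondrial genes of the chromosome were lower at all 3 later ages. ATPsynbeta (chr4:1031484-1034917, plus strand) had 7674, 5990.1 and 5759 normalized counts at day 3, 4496, 4485 and 4537 at day 15, 4119, 4226 and 4231 at day 30, and 3876, 4080.3 and 4694 at day 45. It was 1.53-fold lower at day 45 (log2 change -0.61, SE 0.10, limma adjusted p = 0.000124). The day 15 and day 30 libraries were tightly grouped, whereas 1 day 45 library lay above all of them. ND-49 went from 1143 ± 66.3 at day 3 to 792 ± 38.7 at day 45 (log2 change -0.53). Its day 15 call was lost without day 3 replicate 1 (limma adjusted p = 0.0796) or day 15 replicate 2 (0.0785).

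Genes of protein synthesis and RNA regulation had few calls. Of 6, 1 was lower at day 45 and 2 at day 30, with a median log2 change of -0.04 at day 45. RpS3A had 3567 ± 26.3 normalized counts at day 3 and 3572 ± 351 at day 45, and eIF4G1, the scaffold of the cap-binding complex, differed by 0.03 on the log2 scale. The lower member was Gyf, which belongs to the GIGYF family of translational regulators. Its change (-0.28) did not pass without day 3 replicate 1, at a limma adjusted p of 0.0694.

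Transcription factors formed the most numerous group, and 7 of 15 were lower at day 45, 8 at day 30 and 2 at day 15 (median log2 change at day 45 -0.26). The day 45 count was near the 50% lower over all 84 genes, so it is not particular to this group. Pangolin (pan), the TCF factor of the Wnt pathway, went from 1845 ± 85 to 1373 ± 160.1 (-0.43). NfI (-0.39), the Pax6 gene toy (-0.34) and pho (-0.32), a DNA-binding recruiter of Polycomb complexes, were lower as well. The other Pax6 gene, ey (-0.03), the Hedgehog effector ci (0.02) and zfh2 (-0.05) did not pass.

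Among 7 genes of chromatin and transcriptional cofactors, 5 were lower at day 45 (median -0.28). They included Tdg (-0.39), a DNA glycosylase, and Taf3 (-0.28), a subunit of the general factor TFIID. Also in that count was legless (lgs), the BCL9-type cofactor of pan, with the smallest fall of the 42 (-0.20, limma adjusted p = 0.0439). The lgs call was lost with edgeR (adjusted p = 0.0587), DESeq2 (0.118), the replicate block (0.0619), a fit of 2 ages only (0.104) and 9 of the 12 libraries left out in turn, up to 0.198 without day 45 replicate 3. Of 9 genes of axon guidance and cell contact, 4 were lower (median -0.10), among them dpr7 (-0.47), a cell-surface immunoglobulin protein, and Ephrin (-0.27). The Ephrin call was lost without day 3 replicate 1, at a limma adjusted p of 0.0578. The semaphorin receptors PlexA (-0.04) and PlexB (-0.06) and the ephrin receptor Eph (-0.10) did not pass.

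Of the 3 TGF-beta family ligands, 2 were lower at day 45. The ligand mav (chr4:623219-626031, minus strand) had 249, 202 and 193 normalized counts at day 3, 179, 164 and 173 at day 15, 148, 165 and 169 at day 30, and 141, 144 and 132 at day 45. The day 45 libraries lay below all others, 1.53-fold below day 3 on average (log2 change -0.62, SE 0.10, limma adjusted p = 0.000185). Actbeta, an activin, went from 458 ± 42.3 to 359 ± 16 (-0.35), and myo (0.01) did not pass.

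The group listed as kinases and small GTPases gave 5 lower of 9 at day 45 (median -0.37), near the 50% lower over all 84 genes. These were CaMKII, PIP4K, Arl4 (-0.37), Slip1 (-0.45) and Asator (-0.49), a tau tubulin kinase homologue that went from 1916 ± 136 to 1366 ± 47.3. Slip1 stood in this list although it is neither a kinase nor a small GTPase. Crk, an adaptor in receptor tyrosine kinase signalling that was grouped with axon guidance, was lower (-0.30), but not without day 45 replicate 1, at a limma adjusted p of 0.0587.

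Among the genes of lipid, metal and secreted factors, 2 of 5 were lower at day 45. The gene anne (chr4:132220-143123, plus strand), whose product is a predicted cation-transporting P-type ATPase, had 2846, 2538 and 2545 normalized counts at day 3, 1990.0, 2083 and 2040.3 at day 15, 1917, 1829 and 1876 at day 30, and 1719, 1621 and 1718 at day 45. Its 4 ages did not overlap at all, each lying below the age before, though neither step after day 15 passed the limma test. The difference at day 45 was 1.57-fold (log2 change -0.65, SE 0.07, limma adjusted p = 1.74e-06).

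The other was yellow-h (chr4:227922-230428, plus strand), of the family named after the pigmentation gene yellow, with 145, 144 and 108 normalized counts at day 3, 77.3, 82.7 and 79.4 at day 15, 67.7, 76.2 and 107 at day 30, and 73.5, 66.2 and 78 at day 45. A single day 30 library came close to the lowest day 3 library. It was 1.8-fold lower at day 45 (log2 change -0.85, SE 0.16, limma adjusted p = 0.000417).

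The most abundant of the 84, apolpp (chr4:1060969-1077273, plus strand), went the other way at day 30. It had 17884, 18859.7 and 18647 normalized counts at day 3, 19132, 18135 and 19016 at day 15, 19235, 23723 and 24192 at day 30, and 20678, 19734 and 21727 at day 45. Its log2 change was 0.27 at day 30 (limma adjusted p = 0.0465) and 0.17 at day 45 (0.213), so that only the day 30 difference passed, and in that group 2 libraries stood above the remaining one. The day 30 call was lost with a pseudocount of 10 (limma adjusted p = 0.0515), no filter (0.0775), the replicate block (0.0552), a fit of 2 ages only (0.109) and 9 of the 12 libraries left out in turn, up to 0.186 without day 30 replicate 3. Of 4 fat body markers tested, 0 were called at day 30 and 2 were higher at day 45 (limma), and their part in the level of apolpp was not tested.

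Of 4 genes of muscle and cytoskeleton, 1 was lower and 1 higher at day 45. The lower was bent (bt), which encodes projectin, a giant sarcomere protein. It had 2296, 1528 and 1685 normalized counts at day 3, 862, 969.7 and 1065 at day 15, 1119, 1368 and 1243 at day 30, and 1285, 1159.8 and 1173 at day 45. Its lowest level was at day 15 (log2 change -0.91) and it lay at -0.59 at day 45. The muscle markers were lower at the same ages, Mhc by a log2 change of -1.21 at day 45, and their part in the level of bt was not tested.

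The higher was Kif3C (chr4:1147466-1169239, plus strand), a kinesin motor gene, with 107, 123 and 123 normalized counts at day 3, 138, 157 and 124 at day 15, 174, 170.5 and 193 at day 30, and 153, 134 and 174 at day 45. It peaked at day 30 (log2 change 0.60, limma adjusted p = 0.000826) and at day 45 was 0.38 above day 3 (SE 0.12, limma adjusted p = 0.0171). The day 45 call was lost with DESeq2 (adjusted p = 0.0594) and without day 3 replicate 1 (0.0754) or day 45 replicate 3 (0.0878).

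The other 2 genes higher at day 45 were CG32017 and a low-level noncoding RNA. CG32017, which overlaps Kif3C on the opposite strand, went from 1200.4 ± 59.3 to 1432 ± 72.3 (log2 change 0.25, SE 0.07, limma adjusted p = 0.00851). The gene lncRNA:CR44441 went from 9.06 ± 1.76 to 22.1 ± 2.81 normalized counts (1.21, SE 0.31, limma adjusted p = 0.00556). A read was worth 0.835 to 1.22 normalized counts, so the level of this RNA rests on few reads.

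Pur-alpha (chr4:558016-567257, plus strand), a single-stranded nucleic acid binding protein gene, had 1522, 1279.7 and 1308 normalized counts at day 3, 874, 983 and 1055 at day 15, 922, 932 and 966 at day 30, and 870.4, 861 and 845 at day 45. Its later libraries all lay below day 3, and it was 1.59-fold lower at day 45 (log2 change -0.67, SE 0.08, limma adjusted p = 7.95e-06).

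The lower genes were spread along the chromosome. In gene order, the first 28 genes (PlexB to Hcf) held 13 that were lower at day 45, the next 28 (dati to fd102C) 14 and the last 28 (Gyf to Cadps) 15. The median log2 changes of these stretches were -0.22, -0.27 and -0.26. By strand, 21 of 40 plus-strand and 21 of 44 minus-strand genes were lower. The longest run of lower neighbours counted 6 genes and went from CG31998 through Crk, CG31999, yellow-h and CG1674 to dpr7. Across the 83 pairs of neighbours the Spearman correlation of day 45 changes was 0.081, a description over genes that share the same libraries.

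**Figure D3:**
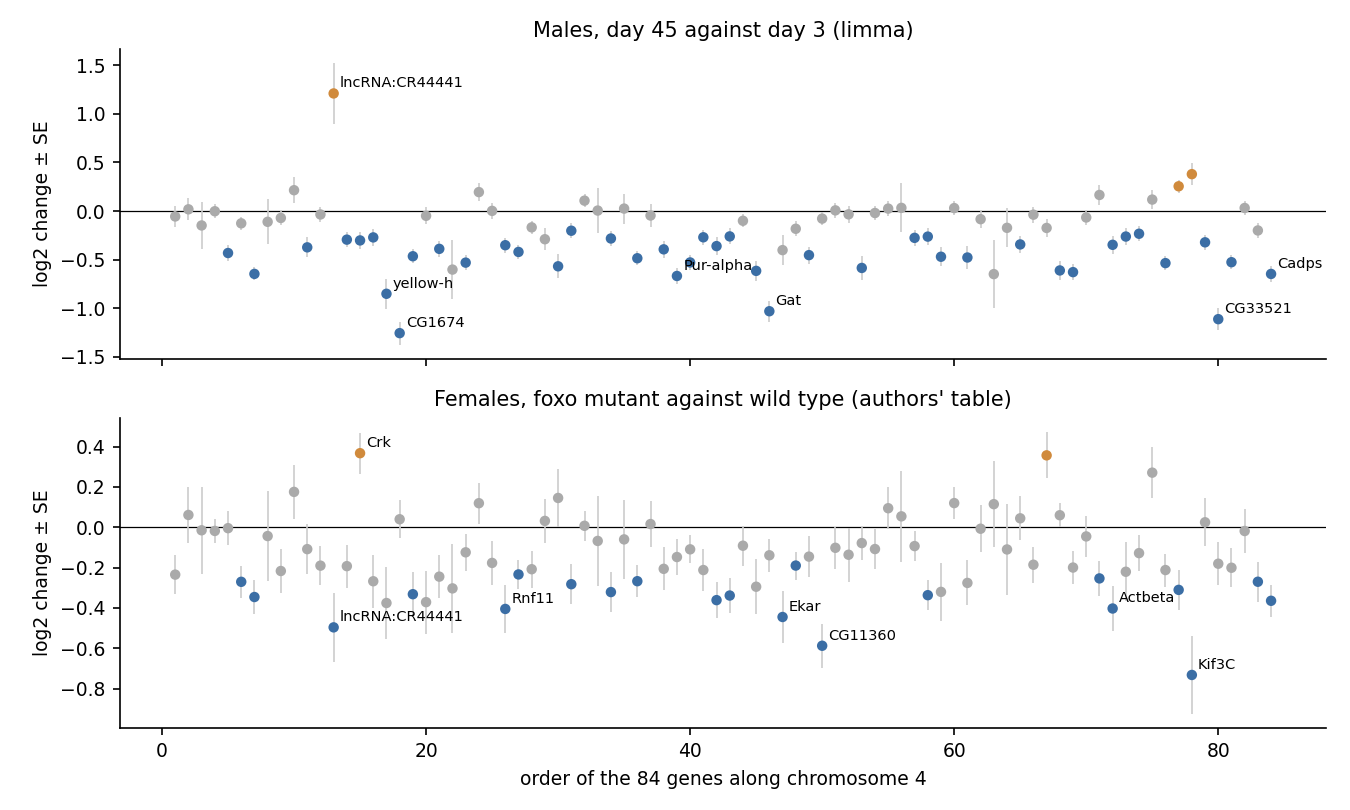
Log2 change of each chromosome 4 gene in gene order, at day 45 against day 3 in male heads (limma, upper panel) and in foxo c431 against w1118 female heads (authors' deposited table, lower panel). Genes with an adjusted p under 0.05 are blue (lower) or orange (higher), and the rest are grey. Blue points occur along the whole order in both panels.

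Lower genes were found with and without an overlapping neighbour. Of the 50 that overlap no other annotated gene, 26 were lower at day 45 (median log2 change -0.27), and of the 34 that do overlap one, 16 were.

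Long and abundant genes were more often called lower across the genome, so the counts were also taken within ranges of length and level, which were chosen with the values in view. For exons under 2000 bases, 35.3% of chromosome 4 genes and 11.2% of other genes were lower at day 45, and for at least 6000 bases 50% and 35.4%. At a mean level of 300 to 1000 normalized counts the shares were 56.8% and 32.0%, and below 100 they were 10% (1 of 10 genes) and 8.54%. At 1000 or more they were 61.9% and 35.5%, while the median log2 changes were -0.26 on chromosome 4 and -0.0071 elsewhere. A larger share called is thus not in itself a larger typical change. Among coding genes with a level of at least 100 and at least 2000 bases of exon, 34 of 63 on chromosome 4 were lower, or 54.0%, against 29.2% of 3265 others, with median log2 changes of -0.26 and -0.07.

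Spearman's rho between exon length and the day 45 change was -0.18 over the 8672 other genes and 0.02 over the 84. These are descriptions across genes measured in the same 12 libraries.

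**Figure D4:**
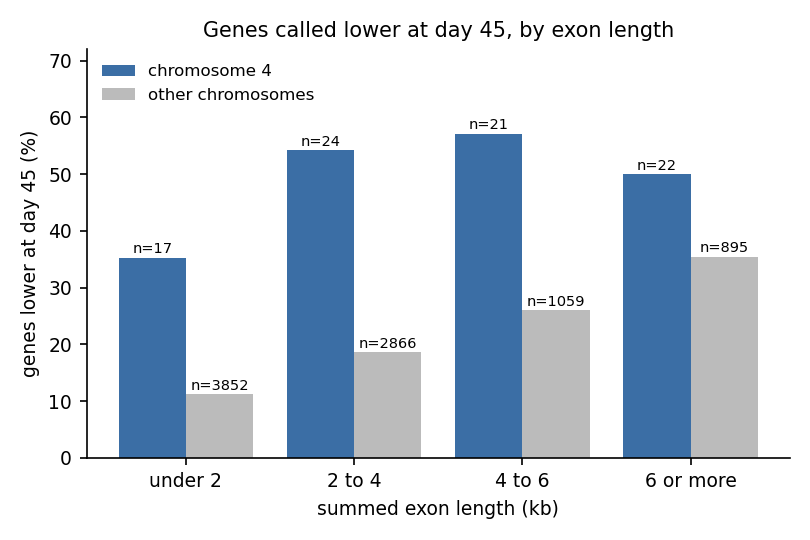
Share of genes lower at day 45 (percent, limma adjusted p under 0.05) by total exon length, for chromosome 4 genes and all other genes tested. The chromosome 4 share is above the share of other genes in each of the 4 length ranges, and the gap is narrowest for the longest genes, 50% against 35.4%.

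A list of 15 genes that lie elsewhere, drawn up as regulators of this chromosome's chromatin, was counted too. Whether each of them acts on chromosome 4 was not tested. Of the 15, 1 was higher and 0 lower at day 45, with 2 higher and 1 lower at day 30 and none past the limma threshold at day 15. Over all 8921 genes 35.7%, 31.5% and 13.4% were called at day 45, day 30 and day 15. At day 45 the higher one was pzg (246 to 304 normalized counts, log2 change 0.30, limma adjusted p = 0.0119). Pof went from a mean of 65.2 to 60.5 (-0.12, limma adjusted p = 0.564) and the gene of HP1a from 235 to 247 (0.08, 0.599), while egg differed by -0.23 (0.208). The summed level of the 15 was 2491 to 2587 normalized counts in the day 3 libraries and 2590 to 2688 in the day 45 libraries.

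In female heads labelled foxo c431, chromosome 4 genes were again more often lower than higher than in their wild type. By the authors' deposited table, 21 of the 84 were lower and 2 higher at an adjusted p under 0.05, against 6.51% and 6.26% of all genes with an adjusted p. The median log2 change in the authors' deposited table was -0.18 over the 84 and 0.0042 over all genes. Of the 84, 66 were below 0, against 49.1% of all genes with an adjusted p. Longer genes elsewhere also had lower values there, with a Spearman's rho of -0.25 between exon length and change over 8557 other genes. Among coding genes with a male level of at least 100 and at least 2000 bases of exon, the medians were -0.19 on chromosome 4 and -0.06 elsewhere. For genes with at least 6000 bases of exon they were -0.21 and -0.14. Counting each of the 86 chromosome 4 genes with an adjusted p in the authors' deposited table, 24.4% were lower, against 4.90% to 7.49% on the other arms. These shares were known when the genes were chosen for description, and nothing further is read from them.

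Kif3C had the largest change of the 84 in the authors' deposited table (log2 change -0.73, SE 0.192, adjusted p = 0.00234), followed by the unnamed gene CG11360 (-0.59, SE 0.108, adjusted p = 2.77e-06). CG11360 (chr4:671142-690650, plus strand) was not called at any age in the male heads. It had 766, 698 and 764 normalized counts at day 3, 751, 780.2 and 729 at day 15, 751, 754 and 722 at day 30, and 728, 691 and 690.4 at day 45, and day 45 overlapped with day 3 (log2 change -0.08 at day 45, limma adjusted p = 0.396).

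Of the 12 genes of neuronal signalling, 5 were lower and 0 higher in the mutant by the authors' deposited table, with a median log2 change of -0.22. Those with the smallest adjusted p in the authors' deposited table were unc-13 (-0.34, SE 0.073, adjusted p = 0.000114) and Cadps (-0.36, SE 0.0797, adjusted p = 0.000133). The calcium pump PMCA (-0.23) and the receptor Ekar (-0.44) were lower there too, as was dpr7 (-0.33), again by the authors' deposited table. CG11155 (-0.21, adjusted p = 0.0665), mGluR (-0.28, 0.0856) and CaMKII (-0.20, 0.0999) lay just outside the threshold of the authors' deposited table. The 4 neuronal markers were lower in the authors' deposited table as well, elav by a log2 change of -0.38, brp by -0.30, nSyb by -0.26 and Syt1 by -0.25, and their part in these values was not tested.

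Other lower genes in the authors' deposited table were anne (-0.35), onecut (-0.34), a homeobox transcription factor gene of neurons, Actbeta (-0.40) and the ring-finger gene Rnf11 (-0.40). Of the 15 transcription factors, onecut was the 1 with a call, and the group's median in the authors' deposited table was -0.0046. Neither mitochondrial gene was called in the authors' deposited table. The lipid carrier apolpp was lower there (-0.25, adjusted p = 0.0360 in the authors' deposited table), while 2 of 4 fat body markers, fon (0.35) and Lsp1beta (1.06), were higher in the authors' deposited table and 0 lower, and their part was not tested. Also lower in the authors' deposited table was gw (-0.19, adjusted p = 0.0496), the GW182 protein of microRNA silencing, at the edge of the threshold. The 2 higher genes in the authors' deposited table were Crk (0.37, adjusted p = 0.00436) and CG11076 (0.36, adjusted p = 0.0182), the latter overlapping ATPsynbeta.

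The age and mutant comparisons share no library, so their calls can be set side by side. Of the 84 genes, 16 were called in both, 29 with age alone, 7 in the mutant alone and 32 in neither. Of these 16, 12 were lower in both, which is 57.1% of the 21 lower in the mutant and 28.6% of the 42 lower at day 45. These shares lie near those over all 84, of which 50% were lower at day 45 and 25% in the mutant. Of 8532 other genes in both tables, 605 were lower in the authors' deposited table, and 43.1% of those were lower at day 45, against 18.0% of the 8532. The 12 chromosome 4 genes lower in both are Cadps, anne, unc-13, Asator, PMCA, dpr7, Actbeta, Rnf11, CG1909, onecut, Taf3 and lgs. The age calls of lgs and unc-13 were lost under several alternatives, as given above, and that of onecut (-0.26) without day 3 replicate 1 (limma adjusted p = 0.0861) or day 45 replicate 3 (0.0711). The remaining 4 went opposite ways: Kif3C, CG32017 and lncRNA:CR44441 had an upward call with age against a downward one in the authors' deposited table, and Crk the reverse. The mean of lncRNA:CR44441 in the authors' deposited table was only 3.64. Kif3C and CG32017 overlap in part on opposite strands, so reads in the shared stretch cannot be told apart where counting by strand is not stated. The strongest falls with age were not matched in the mutant: CG1674, CG33521 and Gat had no call in the authors' deposited table. Across the 84 genes, Spearman's rho between both changes was 0.20 and Pearson's r 0.00036, against a rho of 0.24 over 8557 other genes, as a description.

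**Figure D5:**
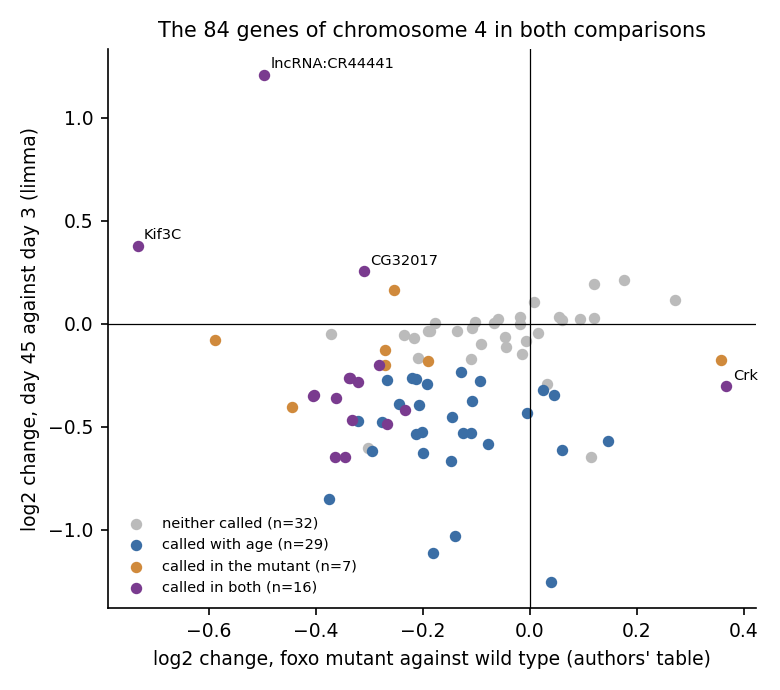
Log2 change at day 45 against day 3 in male heads (limma, vertical axis) against log2 change in foxo c431 against w1118 female heads (authors' deposited table, horizontal axis) for the 84 chromosome 4 genes, coloured by the comparison in which each was called. Most called genes lie in the lower left of the plot, and the labelled Kif3C, CG32017, lncRNA:CR44441 and Crk lie outside it.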

How the data were processed

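The male table holds gene counts that the authors divided by a size factor per library before they deposited them (signal that is not whole). The submitters' processing notes name STAR, HTSeq, DESeq and dm6, without versions. The sources do not say how overlapping genes and strand were counted. The mutant comparison is the authors' deposited table of log2 fold changes, standard errors (score) and p-values, and whether its fold changes were shrunken is not stated. A test of the mutant from values per library had been planned, and the authors' adjusted p was used in its place. Values of each male library were multiples of 0.835 to 1.22, the worth of 1 read, within 0.001. In 3 libraries that worth was too close to 1 for the check of units to accept the recovery, so count tests were used only as alternatives.

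Genes with at least 10 in 3 libraries were tested as log2(value + 1) in 1 limma 3.58.1 model of 12 male libraries, with Benjamini-Hochberg adjustment over 8921 genes and a threshold of 0.05. SE and log2 changes are on that scale, and the procedure was tested on simulated data. Alternatives were a pseudocount of 10, no filter, TMM scaling, edgeR 4.0.16 and DESeq2 1.42.0 on recovered reads, a replicate block, 2 ages only, and each library left out. Gene positions came from Ensembl's annotation of the dm6 assembly. Of the 84 names, 61 matched the mutant table by symbol and 23 by synonym. The genes, groups of genes, ranges and tests were chosen with earlier results of these data known, and some groups were amended once gene names in the files were seen. By the rule for naming, up to 10 genes of largest change each way at day 45 with a mean of at least 50, mutant calls and leading genes of each group were named, and 12 were given in every library. Further members named as examples, and bt, apolpp and Ekar by library, were chosen after their values were seen.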

Additional observations from a re-analysis of the deposited data

How the results depend on the processing

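The counts of chromosome 4 genes lower at day 15, day 30 and day 45 stayed within 1.5 times their value under each alternative fitted to all 84 genes. Of the 42 genes lower at day 45, 37 kept the call in all settings but those that left out a single library, the fit of 2 ages included. With each library left out as well, 32 kept it. The replicate block gave 43 lower and 3 higher at day 45. The replicate numbers pair no libraries: over 18 same-number pairs the correlation of deviations ran from -0.25 to 0.15, and 3 of 12 libraries correlated best with their own number. The 5 genes higher at day 30 became 3 with a pseudocount of 10, 3 with the replicate block and 3 with 2 ages only, and 2 to 6 with single libraries left out. From day 15 to day 30, 1 gene was higher with 2 ages only, and 0 to 1 with libraries left out. From day 30 to day 45, 0 to 1 were lower with libraries left out, 1 without day 3 replicate 1 or day 45 replicate 3. The cause was not tested. At an adjusted p under 0.01, the authors' deposited table gave 12 lower and 1 higher in the mutant. Over the 50 genes that overlap no other, a restriction chosen after seeing the data that leaves fewer genes, 26 were lower and 1 higher at day 45, 25 and 2 at day 30, 12 lower at day 15, and 11 lower and 1 higher in the mutant. Of 1634 values of named genes under the alternatives, 1510 kept direction and call, 124 lost the call and 0 reversed. With 3 libraries a group, a gene that missed the threshold is not shown to be level.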
